A study of Mus musculus with 8 samples.

Results

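The genes described here are the subunits and regulators of the proteasome in group 2 innate lymphoid cells (ILC2s), lung lymphocytes without antigen receptors that make type 2 cytokines. Members were the genes measured both in bulk libraries and in single cells whose symbol starts with Psma, Psmb, Psmc, Psmd, Psme, Psmf or Psmg followed by a number, pseudogenes left out. This gave 48 of the 14956 genes present in both tables. They fall into 7 alpha subunits and 4 non-catalytic beta subunits of the 20S core, 3 constitutive catalytic subunits, 3 immunoproteasome catalytic subunits, 6 ATPases and 11 non-ATPases of the 19S particle, 7 assembly chaperones, 5 activators or inhibitors, and 2 genes that share only the symbol pattern or whose status is uncertain. The last 2 are Psmc3ip, a meiotic recombination factor and no proteasome subunit, and Psme2b, a near copy of Psme2 whose reads may be split with it.

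The proteasome degrades proteins that carry ubiquitin chains. Its barrel, the 20S core, has outer rings of alpha subunits and inner rings of beta subunits, and 3 of the beta subunits (Psmb5, Psmb6 and Psmb7) hold the cutting sites. The 19S particle caps the barrel, binds and unfolds the substrate, and feeds it in. In immune cells, and in other cells after interferon, the immunoproteasome subunits Psmb8, Psmb10 and Psmb9 can take the places of Psmb5, Psmb7 and Psmb6, which alters the peptides made for MHC class I. Psme1 and Psme2 form the PA28 activator, another cap of the barrel that interferon also induces.

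All mice were wild type C57BL/6. The bulk libraries came from female mice that received IL-33, an epithelial alarmin that activates ILC2s, through the nose on 3 days, together with PBS (3 libraries) or dopamine (3 libraries); each was made by Smart-Seq2 from 2000 sorted ILC2s. The single cells came from male mice in 1 droplet pool labelled with 8 hashtag antibodies. IL-33, where these mice received it, was also given on 3 days. The authors' cell table gives hashtags 1 and 2 as PBS, 3 to 5 as IL-33 and 6 to 8 as IL-33_DA, which is IL-33 with dopamine. The labels do not say that a hashtag was 1 mouse, so the p-values measure the spread between hashtags, and between libraries in the bulk data, which the labels call biological replicates.

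The bulk values carry no read counts, so their depth is unknown. The number of genes at 1 TPM (transcript abundance corrected for transcript length) or more was 9822 to 11384 in the PBS libraries and 11502 to 11745 in the dopamine libraries. Hashtag totals ran from 1397576 to 9268932 UMIs (unique molecules counted) over 311 to 1516 cells, and no barcode of the 9076 cells was listed more than once. The 10 ILC2 marker genes, Gata3 and Il1rl1 among them, summed to 2602 to 4105 TPM in the bulk libraries and to 6806 to 8216 CPM (UMIs scaled to a hashtag total of 1000000) in the hashtags. Markers of some other cell types were higher in the dopamine bulk libraries. The 8 markers of NK cells and ILC1 summed to 49.0, 81.5 and 347 TPM in PBS libraries 1 to 3. In dopamine libraries 1 to 3 they summed to 790, 704 and 350 TPM. All 7 that were tested were higher at an unadjusted limma p under 0.05, against 19.5% of all genes, though none passed after adjustment. The 9 T cell markers summed to 1150 to 1662 against 1687 to 2160 TPM. The 4 ILC3 markers summed to 10.9 to 62.2 against 85.0 to 173 TPM. The 5 B cell markers summed to 54.4 to 145 against 105 to 288 TPM, with overlap. Endothelial markers summed to 7.33 to 22.1 against 23.8 to 29.8 TPM and epithelial markers to 5.80 to 8.44 against 8.87 to 20.3 TPM. Sums of dendritic cell markers and of basophil and mast cell markers overlapped between groups. The median log2 fold change was 2.67 in the tested NK cell and ILC1 markers, 0.57 in T cell, 2.26 in ILC3 and 1.53 in B cell markers. Over all genes it was 0.49. The 4 neutrophil markers summed to 7.41 to 31.6 against 0 to 11.6 TPM. The 6 macrophage and monocyte markers summed to 24.6 to 200 against 89.9 to 486 TPM, and 2 of the 3 tested were lower. Markers of fibroblasts were listed at 0 throughout. In the hashtags the NK cell and ILC1 sum was 269 to 277 CPM in PBS, 227 to 248 in IL-33 and 239 to 266 in IL-33_DA. The macrophage and monocyte sum was 418 to 529 CPM in PBS, 508 to 623 in IL-33 and 557 to 613 in IL-33_DA. The part of these cells in the bulk results was not tested, and in bulk samples fewer cells of a type and less RNA per cell cannot be told apart.

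Promoter windows from RefSeq (GRCm38.p6), reaching from 250 bases before to 50 bases after the start site, were matched for 41 of the 48 members in 44 windows. Psmb1, Psmb2, Psmb7, Psmc3, Psmd3, Psmd7 and Psmg2 had no entry. The 3 windows below, cut at the start site, are those of Psmb5 and Psmb6, constitutive catalytic subunits that hold the core of the antioxidant response element (TGACNNNGC, bound by NRF1 and NRF2, the first of which is known to drive proteasome genes), and of Psma1, the member with the smallest p in the bulk comparison, which holds a pair of CCAAT boxes. Psmb5 is at chr14:54617996-54618245 on the minus strand, Psmb6 at chr11:70525107-70525356 on the plus strand and Psma1 at chr7:114276117-114276366 on the minus strand. Each is written 5′ to 3′ along the gene with the matched motif in capitals.
Psmb5: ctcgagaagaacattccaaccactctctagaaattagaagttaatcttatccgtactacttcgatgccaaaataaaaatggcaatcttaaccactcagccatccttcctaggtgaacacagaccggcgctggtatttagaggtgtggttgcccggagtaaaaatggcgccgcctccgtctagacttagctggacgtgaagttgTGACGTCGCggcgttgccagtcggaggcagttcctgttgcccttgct
Psmb6: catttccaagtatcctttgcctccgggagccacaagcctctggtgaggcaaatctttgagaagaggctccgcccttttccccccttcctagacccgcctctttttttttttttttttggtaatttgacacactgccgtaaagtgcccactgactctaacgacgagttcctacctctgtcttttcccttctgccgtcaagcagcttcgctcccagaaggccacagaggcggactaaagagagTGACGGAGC
Psma1: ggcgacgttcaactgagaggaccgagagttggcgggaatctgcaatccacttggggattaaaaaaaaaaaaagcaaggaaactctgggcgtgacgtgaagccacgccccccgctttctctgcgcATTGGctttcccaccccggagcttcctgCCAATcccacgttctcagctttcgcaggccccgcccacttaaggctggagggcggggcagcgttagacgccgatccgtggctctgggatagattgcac

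On either strand the antioxidant response element core was found in 6 of the 44 member windows (13.6%; Psmb5, Psmb6, Psmc6, Psmd9, Psmd12 and Psme4), against 12.4% of all 32851 windows and 14.4% of the windows of genes tested in the bulk data. The ETS element CCGGAAG was found in 16 member windows (36.4%), against 8.86% of all windows and 19.2% of those of tested genes, and most of these were 19S genes such as Psmd2, Psmd11 and Psmc2. The interferon response factor element GAAANNGAA was found in 7 member windows (15.9%; Psmb3, Psmb4, Psmc2, Psmd4, Psmd9, Psme1 and Psmg4), against 8.56% of all windows and 7.22% of those of tested genes. The CCAAT box was found in 31.8% of member windows, against 37.4% of all and 37.7% of those of tested genes, and the YY1 element AAGATGGCG in 4.55% (2 windows, Psmb6 and Psmc5) against 1.40% of all and 3.32% of those of tested genes. A match is a description of the letters, and motifs may overlap. Psmb9 shares its promoter region with Tap1, the peptide transporter gene that runs the other way: their start sites in this table are 226 bases apart and their windows share 275 bases. In the GENCODE M21 annotation (GRCm38) Psmb9 lies at chr17:34181987-34187764, Tap1 at chr17:34187553-34197225 and Psmb8 at chr17:34197721-34201454.

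The core of the proteasome was abundant in these cells. On the TPM scale, which is corrected for transcript length, the median of the 17 core genes in the PBS libraries was 262 TPM. This was higher than in 96.0% of the 11222 genes tested. The median of the 17 genes of the 19S particle was 86.6 TPM, higher than in 89.8%. Psmb3, a structural beta subunit, was the highest at 497 TPM on average, followed by Psme1 at 456 TPM, Psmb8 at 454 TPM and Psma7 at 435 TPM. The assembly chaperones had a median of 32.6 TPM. At the low end stood Psme4, the PA200 activator of the nucleus, at 1.61 TPM. Psme3, which forms the nuclear PA28 gamma ring, was at 6.36 TPM. In the dopamine libraries Psme4 and Psme3 averaged 12.7 and 10.6 TPM. The order differed in the IL-33 hashtags. There Psme4 (mean 18.2 CPM) and Psme3 (28.1 CPM) lay above the chaperones Psmd5 (14.6), Psmg1 (15.3) and Psmg3 (10.9). Those chaperones were above both genes in the bulk PBS libraries, whose mice also received IL-33. The CPM values carry no correction for transcript length and come from male mice. The part of either in this difference was not tested.

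The first comparison asks how dopamine given with IL-33 moved proteasome transcripts in bulk ILC2s. All 17 core genes had lower mean log2 levels in the dopamine libraries, by 0.26 (Psmb6) to 0.82 (Psma4) on the log2(TPM + 1) scale, with a median log2 fold change of -0.46. The 6 ATPases of the 19S particle differed little, with log2 fold changes of -0.17 (Psmc3) to -0.03 (Psmc6), and the 11 non-ATPases were split, 5 lower and 6 higher. Over all members 38 of 48 were below 0, against 28.6% of all genes. No member passed at an adjusted p under 0.05 (limma, Benjamini-Hochberg over 11222 genes), where 0.0356% of all genes passed. The smallest adjusted p among the members was 0.108, for Psma1. At an unadjusted limma p under 0.05 there were 7 members lower, all in the 20S core, against 4.62% of all genes, and 2 higher, Psmd1 and Psme4, against 19.5% of all genes. After median-of-ratios scaling the number lower was 26, with all 17 core genes among them, against 12.9% of all genes, and after quantile normalization it was 16, against 10.9%.

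All genes together stood higher in the dopamine libraries, with a median log2 fold change of 0.49, which was 0.06 after median-of-ratios scaling and 0.03 after quantile normalization. Relative to that median, which by construction has as many genes above it as below, 43 of the 48 members were below 0, and the members' median was -0.71. The core genes were all below it, with a median of -0.96. Under both other scalings, and without any 1 library, all 17 core genes were again lower, with relative medians from -1.14 (without PBS library 1) to -0.55 (quantile normalization). In the ATPases the relative median was -0.60, in the chaperones -0.67, in the non-ATPases -0.45 and in the activators and inhibitors -0.43. Of the non-ATPases, 6 were higher in the deposited TPM and 3 under each of the other scalings.

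**Figure D1:**
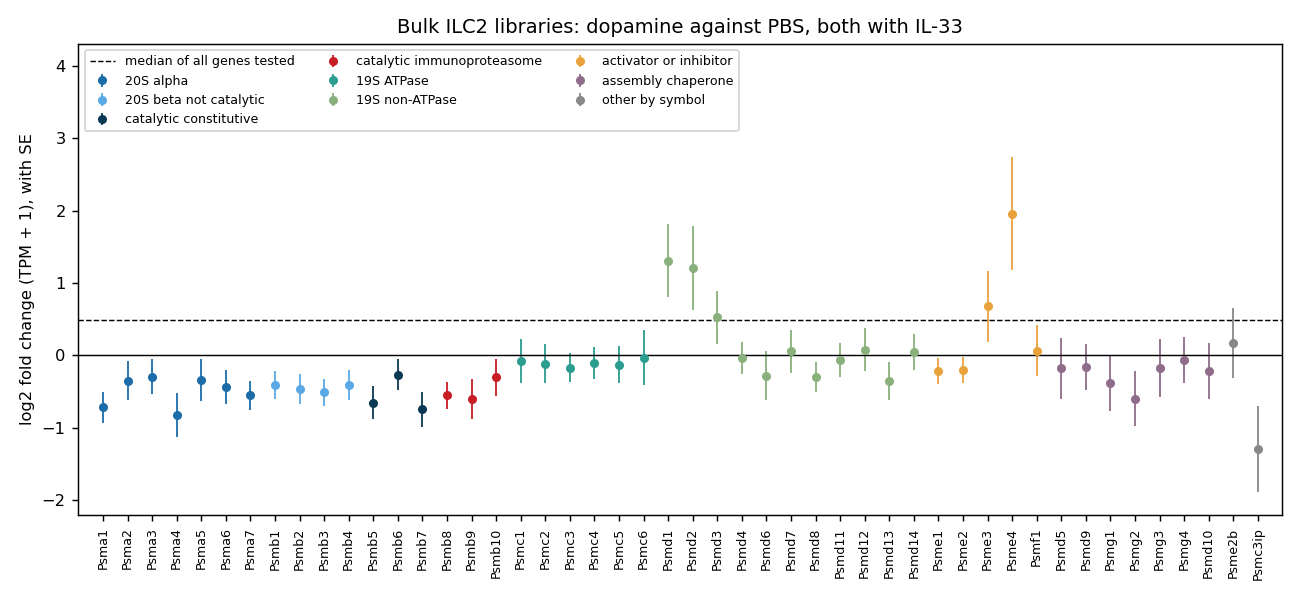
Log2 fold change of each of the 48 members, dopamine against PBS with IL-33 in both, on the log2(TPM + 1) scale (vertical axis; bars are standard errors from limma, 3 libraries a group), ordered by role. The 17 core genes on the left lie below 0, the 6 ATPases near 0, and Psmd1, Psmd2, Psmd3, Psme3 and Psme4 above the dashed line, which marks the median of all genes tested (0.49).

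Among the core genes, 11 of 17 had all 3 dopamine libraries below all 3 PBS libraries, and over all members this was so for 13, against 6.57% of all genes. The reverse order was seen in 1 member, Psmd3, against 23.5% of all genes. The count of 13 was 20 without PBS library 3, where 10.8% of all genes were so placed, and 28 with median-of-ratios scaling, where 15.3% were.

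Psma1, an alpha subunit, was measured at 313, 362 and 278 TPM in PBS libraries 1 to 3 and at 223, 192 and 165 TPM in dopamine libraries 1 to 3, a log2 fold change of -0.72 ± 0.21 (SE). Its groups did not overlap. Psma4 had the largest negative value of the core at -0.82 ± 0.31, but its groups overlapped, since PBS library 3 (123 TPM) lay just below dopamine library 1 (126 TPM). Psma3 was the alpha subunit with the smallest value, -0.29 ± 0.24. The 4 non-catalytic beta subunits lay close together, from -0.41 (Psmb1) to -0.51 (Psmb3), and none of the 4 overlapped between groups.

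Of the constitutive catalytic subunits, Psmb7, which carries the trypsin-like site, was the most separated. It was at 116, 116 and 103 TPM in PBS libraries 1 to 3 and at 66.0, 63.6 and 69.1 TPM in dopamine libraries 1 to 3, a log2 fold change of -0.74 ± 0.24 with an adjusted p of 0.124 in limma. Psmb5, which carries the chymotrypsin-like site, was at 239, 274 and 227 TPM against 176, 179 and 121 TPM, at -0.65 ± 0.23 and an adjusted limma p of 0.142. Both stood apart without overlap. Psmb6, the caspase-like subunit, was at 360, 302 and 310 TPM against 347, 229 and 245 TPM, at -0.26 ± 0.22, and dopamine library 1 lay inside the PBS range.

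All 3 immunoproteasome subunits had lower means with dopamine, and 2 of them did not overlap between groups. Psmb8 was at 417, 529 and 415 TPM in PBS libraries 1 to 3 and at 312, 280 and 332 TPM in dopamine libraries 1 to 3, a log2 fold change of -0.55 ± 0.19 with an adjusted limma p of 0.135. Psmb9 was at 93.4, 67.4 and 75.9 TPM against 54.0, 56.6 and 44.2 TPM, at -0.60 ± 0.28. Neither overlapped between groups. Psmb10 was at 136, 180 and 160 TPM against 131, 96.9 and 164 TPM, at -0.30 ± 0.26, with dopamine library 3 inside the PBS range.

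The share of the 3 immunoproteasome subunits in the summed TPM of the 6 catalytic genes was 50.3% ± 2.7 (SD, n = 3) with PBS and 49.7% ± 5.04 (SD, n = 3) with dopamine. The libraries ranged from 47.5% to 52.9% and from 45.8% to 55.4%, so they overlapped, and this share is described without a test. By pairs, Psmb8 made 64.7% ± 1.17 of Psmb8 plus Psmb5 with PBS and 66.1% ± 6.38 with dopamine (SD, n = 3 each). Psmb9 made 19.5% ± 1.18 of Psmb9 plus Psmb6 with PBS and 16.2% ± 3.30 with dopamine. Psmb10 made 58.6% ± 3.89 of Psmb10 plus Psmb7 with PBS and 65.7% ± 5.07 with dopamine. All 3 pairs overlapped between groups, and the mean share with dopamine was higher in the Psmb8 and Psmb10 pairs and lower in the Psmb9 pair.

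The PA28 subunits were closer to each other between groups. Psme1 was at 414, 480 and 474 TPM in PBS libraries 1 to 3 and at 400, 344 and 436 TPM in dopamine libraries 1 to 3, a log2 fold change of -0.22 ± 0.18. Psme2 was at 336, 337 and 323 TPM against 331, 278 and 262 TPM, at -0.20 ± 0.18. Both overlapped between groups.

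**Figure D2:**
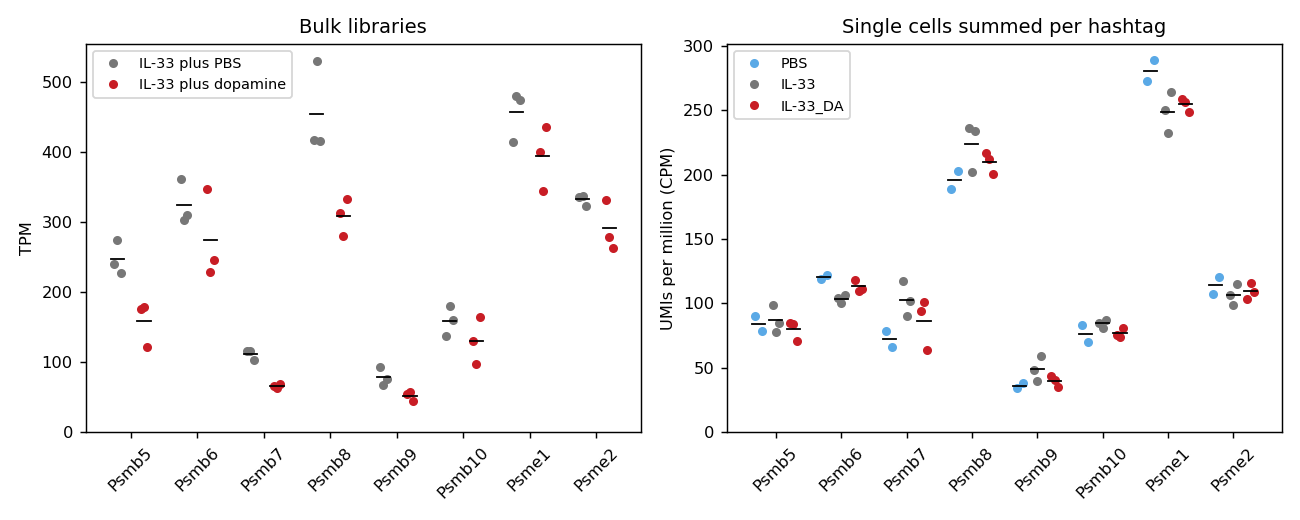
Levels of the 6 catalytic subunits and of Psme1 and Psme2 in each bulk library (left, TPM) and in each hashtag (right, CPM); points are single libraries or hashtags and bars are group means. In the bulk libraries Psmb5, Psmb7, Psmb8 and Psmb9 separate by group, and in the hashtags the groups lie closer together.

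The 3 members farthest above 0 were Psme4, Psmd1 and Psmd2, with transcripts of 6491, 3112 and 3001 bases. Psme4 was at 2.39, 0.54 and 1.91 TPM in PBS libraries 1 to 3 and at 10.4, 25.6 and 1.94 TPM in dopamine libraries 1 to 3, a log2 fold change of 1.96 ± 0.78 with an adjusted limma p of 0.174. Psmd1, the scaffold subunit that holds ubiquitin receptors, was at 52.7, 11.3 and 23.6 TPM against 54.9, 50.6 and 85.0 TPM, at 1.31 ± 0.50 and an adjusted limma p of 0.164. Psmd2, its partner scaffold, was at 99.9, 13.7 and 41.6 TPM against 100.2, 75.6 and 99.3 TPM, at 1.21 ± 0.57. All 3 overlapped between groups, and PBS library 2, the library with the fewest genes detected, was the lowest in each. Without PBS library 1, in contrast, Psmd1 and Psmd2 both passed (for Psmd1 an adjusted limma p of 0.0311), in a fit where 14.3% of all genes did. Without any other single library no member passed.

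Transcript length went along with the fold change over all genes. In 5 bins of all tested genes by length (the transcript with the longest coding sequence in GENCODE M21), the median relative log2 fold change was -0.65, -0.23, 0.12, 0.25 and 0.33 from the shortest bin to the longest. The 23 members in the shortest bin (171 to 1707 bases) had a median of -0.83, the 13 in the next -0.66, the 9 in the middle bin -0.61 and the 2 after it -0.55, each below the median of all genes of that length, and the only member in the longest bin, Psme4, was at 1.47. After a lowess trend with length was taken off, an alternative added after the data were seen, the members' median was -0.31 in place of -0.71, with 40 of 48 below 0. The core was at -0.57, again with 17 of 17 below 0, the ATPases at -0.29 with 6 of 6, and the non-ATPases at -0.11 with 7 of 11. The part of transcript coverage in these values was not tested beyond this trend.

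**Figure D3:**
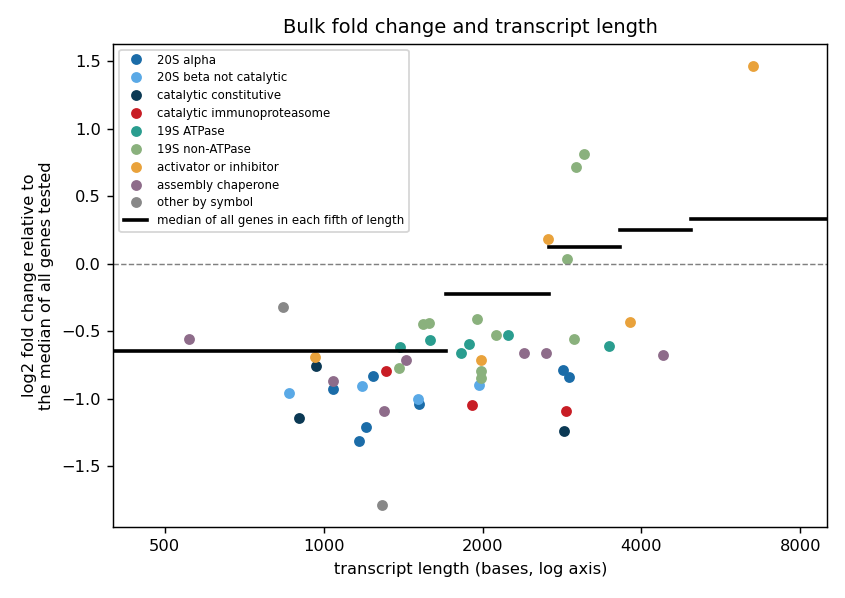
Relative log2 fold change in the bulk data (vertical axis, dopamine against PBS minus the median of all genes tested) against transcript length (log axis, bases) for the 48 members, coloured by role; black bars are the medians of all genes in 5 bins of length. The bars climb from -0.65 to 0.33, and the core genes lie below the bar of their length.

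Among the remaining members, the lowest and highest of each role are given by their log2 fold changes. The non-ATPases ran from -0.35 (Psmd13, a lid subunit) to 1.31 (Psmd1). The chaperones ran from -0.60 (Psmg2, which helps build the alpha ring) to -0.06 (Psmg4), and all 7 had lower means. Of the activators and inhibitors, Psmf1, which encodes the inhibitor PI31, was at 0.07 ± 0.35. Psmc3ip, at 3.25 to 4.62 TPM with PBS and 0 to 2.90 TPM with dopamine, was at -1.29 ± 0.60, a value that depends on the pseudocount at such levels.

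The same question was put to the single cells of male mice, by comparing UMI sums of the IL-33_DA hashtags 6 to 8 with those of the IL-33 hashtags 3 to 5. Differences were small. The members' median log2 fold change was -0.07, and 32 of 48 were below 0, where 49.9% of all genes were. No member passed (edgeR quasi-likelihood test, Benjamini-Hochberg over 10559 genes), where 0.0284% of all genes passed, nor did any with DESeq2. At an unadjusted edgeR p under 0.05 there was 1 member lower, Psmb9, against 4.66% of all genes, and none higher, against 4.81%.

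In the core, 14 of 17 were below 0, with a median of -0.11. All 3 immunoproteasome subunits and all 4 non-catalytic beta subunits were on that side, and Psma2, Psma3 and Psmb6 were above 0. The medians were -0.05 in the ATPases, -0.02 in the non-ATPases, -0.08 in the chaperones and 0.03 in the activators and inhibitors. The groups did not overlap in 5 members with lower IL-33_DA values (Psma6, Psmb10, Psmc6, Psmd13 and Psme4), against 6.93% of all genes, and in 1 with higher values, Psmb6, against 7.81%.

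Psmb9 was at 48.0, 39.5 and 58.8 CPM in IL-33 hashtags 3 to 5 and at 43.2, 40.9 and 35.2 in IL-33_DA hashtags 6 to 8, a log2 fold change of -0.30 ± 0.13 with an adjusted edgeR p of 0.513. Its groups overlapped, with hashtag 5 well above the rest. Without hashtag 5 the value was -0.14, and with equal weight for each of the 6 cell clusters it was -0.13. Tap1, its neighbour, was at 34.6, 28.3 and 35.2 CPM in IL-33 and at 27.5, 30 and 19 in IL-33_DA, a log2 fold change of -0.37 with an adjusted edgeR p of 0.491.

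Psmb6 had a value on the other side of 0, at 104, 100.03 and 106 CPM in IL-33 hashtags and 118, 109.8 and 112 in IL-33_DA hashtags, a log2 fold change of 0.13 ± 0.07 with an adjusted edgeR p of 0.584. Its groups did not overlap. Psmb7 was at 117, 89.9 and 102 CPM in IL-33 and 94.4, 101 and 63.9 in IL-33_DA, at -0.26 ± 0.14, with hashtag 8 low and the others overlapping. Psmb5 was at 98.8, 78.1 and 84.5 against 85.1, 83.7 and 71.1 CPM, at -0.13 ± 0.10.

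Psmb8 was at 236, 202 and 234 CPM in IL-33 and at 217, 212 and 201 in IL-33_DA, a log2 fold change of -0.09 ± 0.08, with overlap. Psmb10 was at 85.1, 81.2 and 87.3 against 75.4, 74.1 and 80.9 CPM, at -0.14 ± 0.08, and its groups were apart by a narrow margin. Psme1 and Psme2 had log2 fold changes of 0.03 ± 0.07 and 0.04 ± 0.09. The PA28 genes thus lay within the spread of the hashtags.

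The 3 members with the smallest p after Psmb9 were Psmd13, Psmc3ip and Psma4. Psmd13 was at 59.7, 59.0 and 62.8 CPM in IL-33 and at 54.3, 57.6 and 50.2 in IL-33_DA, a log2 fold change of -0.16 ± 0.08 with an adjusted edgeR p of 0.558. Psma4 was at 92.2, 76.7 and 92.1 against 83.2, 82.2 and 63.7 CPM, at -0.19 ± 0.11, with overlap. Psmc3ip rested on 12 to 27 UMIs per IL-33 hashtag and 8 to 13 per IL-33_DA hashtag, and its value was -0.65 ± 0.35. At the other ends of the roles stood Psmd1 at 0.12 and Psmd9 at 0.10, and Psmg3, a chaperone, at -0.38 ± 0.21.

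The third comparison asks how IL-33 itself moved these genes, with hashtags 3 to 5 against the PBS hashtags 1 and 2. It shares the 3 IL-33 hashtags with the dopamine comparison, so the values of both are set side by side and not related to each other. The members' median log2 fold change was 0.10, and 33 of 48 were above 0 and 15 below, where 50.3% of all genes were below. No member passed (edgeR, Benjamini-Hochberg over 10506 genes), where 0.704% of all genes passed, nor did any with DESeq2. At an unadjusted edgeR p under 0.05, 6 members were higher, against 6.56% of all genes, and 2 lower (Psmb6 and Psme1), against 6.87%. Without overlap, 17 were higher, against 20.9%, and 4 lower, against 13.6%, both shares of all genes.

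Psmb7 had the smallest p. It was at 78.7 and 65.8 CPM in PBS hashtags 1 and 2 and at 117, 89.9 and 102 in IL-33 hashtags 3 to 5, a log2 fold change of 0.51 ± 0.14 with an adjusted edgeR p of 0.103. The groups did not overlap. Its adjusted edgeR p was 0.0382 without hashtag 4 and 0.00199 with no filter on low counts, the settings among those tried in which a member passed. The share of all genes that passed under those settings was not counted. Between the 10th and 90th percentile of UMIs per cell its log2 fold change was 0.23, and without PBS hashtag 2 it was 0.36.

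Psmb6 had lower values with IL-33, at 119 and 122 CPM in PBS against 104, 100.03 and 106 in IL-33, a log2 fold change of -0.26 ± 0.09 with an adjusted edgeR p of 0.233. Psmb5 was at 90.2 and 78.6 against 98.8, 78.1 and 84.5 CPM, at 0.04 ± 0.13. The 3 constitutive catalytic genes thus had values on both sides of 0. Psmb9 was at 34.3 and 37.8 CPM in PBS, below all 3 IL-33 hashtags, at 0.39 ± 0.18 and an adjusted edgeR p of 0.355. Psmb8 and Psmb10 were at 0.15 ± 0.10 and 0.14 ± 0.11, and both overlapped between groups.

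Psmc6, an ATPase of the 19S base, was at 57.2 and 61.6 CPM in PBS and at 80.7, 76.4 and 79.2 in IL-33, a log2 fold change of 0.36 ± 0.11 with an adjusted edgeR p of 0.152. Psmd12, a lid subunit, was at 40.1 and 39.3 against 54.4, 52.5 and 51.7 CPM, at 0.38 ± 0.12 and an adjusted edgeR p of 0.177. Neither overlapped between groups. Psme1 was at 273 and 289 CPM in PBS and at 250, 232 and 264 in IL-33, at -0.21 ± 0.08. Psme2 was at -0.14 ± 0.10, so both PA28 genes had lower means with IL-33. Of the non-ATPases 10 of 11 were above 0, from -0.09 (Psmd4) to 0.38 (Psmd12). The chaperones ran from -0.26 (Psmg2) to 0.27 (Psmg3).

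**Figure D4:**
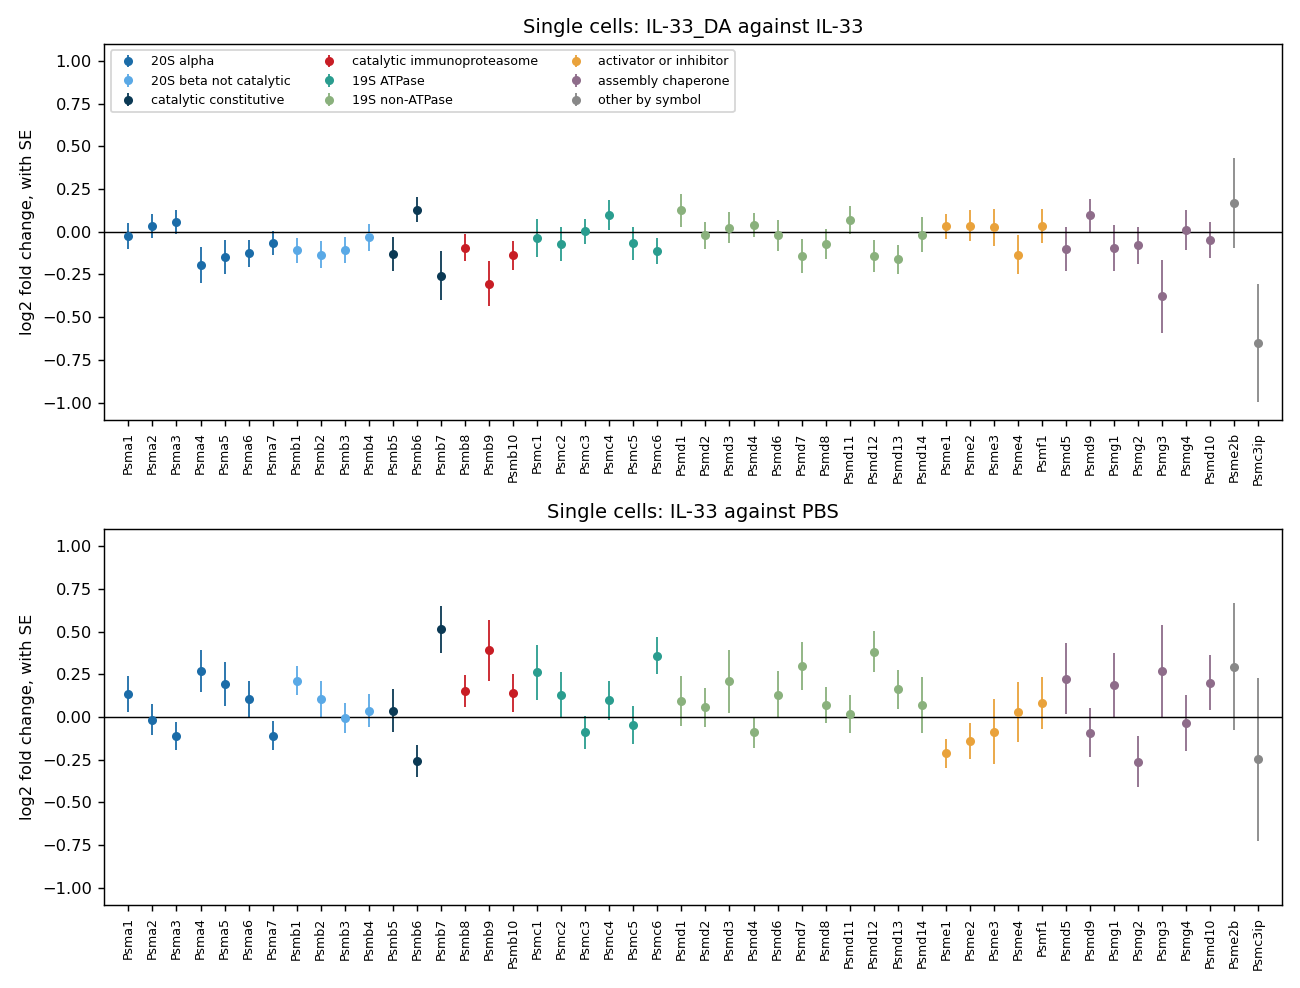
Log2 fold changes of the 48 members in hashtag sums (edgeR; bars are standard errors) for IL-33_DA against IL-33 (top, 3 against 3 hashtags) and IL-33 against PBS (bottom, 3 against 2 hashtags), ordered by role. Values lie within 0.65 of 0 in both panels, and both share the IL-33 hashtags.

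The immunoproteasome share of the catalytic UMIs was 52.7% ± 1.59 (SD, n = 2) in PBS, 54.9% ± 1.48 (SD, n = 3) in IL-33 and 53.9% ± 1.99 (SD, n = 3) in IL-33_DA. These overlapped between all groups. UMIs are counted at transcript ends without a correction for length, so this share is not set against that of the bulk libraries. The share of Psmb9 in Psmb9 plus Psmb6 was 22.4% and 23.6% in the PBS hashtags, 31.6%, 28.3% and 35.6% in the IL-33 hashtags and 26.8%, 27.1% and 24.0% in the IL-33_DA hashtags. The 3 groups did not overlap in this pair, which was singled out after its values were seen and is given without a test. The Psmb10 share in Psmb10 plus Psmb7 was 51.4% ± 0.147 (SD, n = 2), 45.2% ± 2.83 (SD, n = 3) and 47.5% ± 7.34 (SD, n = 3).

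The level of proteasome transcripts was also read in the authors' 6 cell clusters. The members together took a median over hashtags of 3566 CPM in cluster 0, 4135 in cluster 1, 3549 in cluster 2, 3633 in cluster 3, 4262 in cluster 4 and 4362 in cluster 5. Clusters were made from the same cells and genes, so these levels are a description. The hashtag ranges of cluster 1 (3945 to 4248), cluster 4 (4049 to 4514) and cluster 5 (3782 to 4460) lay above that of cluster 0 (3272 to 3672). The ranges of clusters 1, 4 and 5 overlapped with each other. Gene by gene, the median ratio of cluster 4 to cluster 0 was 1.24 over the members, with 44 of 48 above 1, beside 1.15 over all genes, with 74.0% above 1. Cells of cluster 5 had a median of 8142 UMIs, against 4082 to 5481 in the others. Cluster 5 held 2.57% and 3.07% of the cells of the PBS hashtags and 22.0%, 8.88% and 11.7% of the IL-33 hashtags. In the IL-33_DA hashtags it held 6.71%, 14.2% and 1.76%. Its part in the hashtag sums above was addressed only by equal weighting of clusters and by the fits within clusters below. Under equal weighting the members' median was -0.02 for dopamine and 0.047 for IL-33. These values came from limma on log2(CPM + 1) in place of edgeR, so a change of method enters them too.

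With the cells of all hashtags pooled, 24 of the 48 members were highest in cluster 4 and 16 in cluster 5, against 40.0% and 14.5% of the 10001 genes with at least 100 UMIs. The lowest cluster was 3 for 20 members, 0 for 16 and 2 for 10, against 44.0%, 14.6% and 11.5% of those genes. The core and the chaperones differed here. Of the 17 core genes 10 were highest in cluster 5 and 10 lowest in cluster 0, while 6 of the 7 chaperones were highest in cluster 4 and 5 lowest in cluster 3. The median ratio of cluster 5 to cluster 0 was 1.40 in the core, 1.3 in the non-ATPases, 1.12 in the ATPases and 0.91 in the chaperones, beside 1.01 over all genes.

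Psmb7 had the widest range of the core genes, from 54.5 CPM in cluster 0 to 155 in cluster 5. It was higher in cluster 5 in 7 of 8 hashtags. Its hashtag values in cluster 5 ran from 48.1 to 171 CPM, and hashtags 1, 2 and 8 held only 8, 23 and 26 cells there. Psmb5 went from 53.1 to 115 and was higher in cluster 5 in 8 of 8 hashtags. Psma4, from 55.7 to 111, and Psma5, from 41.1 to 87.7, were also higher in 8 of 8. By contrast, Psmb6, Psma3 and Psma7 differed by factors of 1.02, 1.00 and 1.04 between those clusters. Psmb9 was at 63.7 CPM in cluster 5, 54.1 in cluster 1 and 29.7 in cluster 3. Psmd5, a chaperone of the 19S base, had the widest range of all members, 3.4 times between cluster 4 (23.6) and cluster 3 (6.94). The immunoproteasome share had its highest median over hashtags in cluster 0, at 57.9%, and its lowest in cluster 3, at 48.4%. The hashtag ranges of these (54.8% to 60.4% and 45.8% to 50.9%) did not overlap. The high share was not a high level. In the pooled cells Psmb8 (184 CPM) and Psmb10 (71.5 CPM) were at their lowest in cluster 0, as were Psmb5, Psmb6 and Psmb7.

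**Figure D5:**
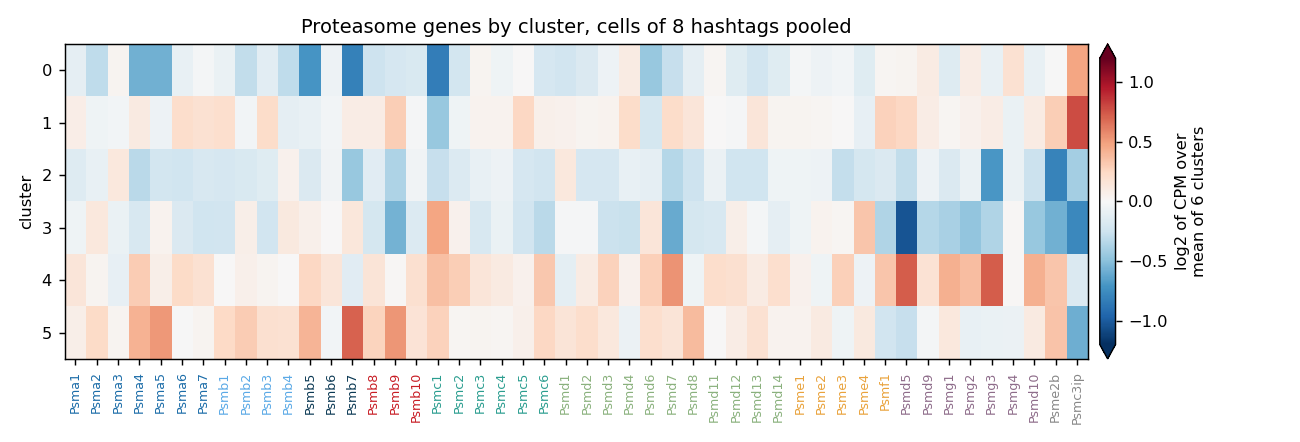
Level of each member in the authors' clusters 0 to 5 (rows), as log2 of its CPM over the mean of the 6 clusters, cells of 8 hashtags pooled; genes are ordered and coloured by role as in the fold-change plots. Cluster 5 is high for Psma4, Psma5, Psmb5, Psmb7 and Psmb9, and cluster 4 for chaperones such as Psmd5 and Psmg3.

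Within single clusters, dopamine was tested on 44 to 47 members and IL-33 on 43 to 47. No member passed in any of the 6 clusters in either comparison (edgeR). Over all genes and clusters, 0.0731% of tests passed for dopamine and 0.166% for IL-33. At an unadjusted edgeR p under 0.05, 3 of 274 pairs of member and cluster were higher and 5 lower with dopamine, against 3.17% and 3.22% of all tests. With IL-33, 15 of 272 pairs were higher and 4 lower, against 4.29% and 3.27%. The smallest p with IL-33 belonged to Psme1 in cluster 0, at -0.43 ± 0.12 and an adjusted edgeR p of 0.214. Psmb7 in cluster 5 followed, at 1.23 ± 0.37 and an adjusted edgeR p of 0.253, where the 2 PBS hashtags held only 8 and 23 cells. In cluster 0 the IL-33 value of Psmb7 was 0.06 ± 0.21. Psmb9 with dopamine had its lowest value in cluster 2, at -0.53 ± 0.24 and an adjusted edgeR p of 0.807, and values of -0.01 in clusters 0 and 1. The IL-33_DA and IL-33 hashtags did not overlap in 30 of the 274 pairs (10.9%), against 11.9% over all genes.

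Partners of the proteasome were taken from a list of 29 genes, among them shuttle factors, deubiquitinases, ubiquitin genes and the regulators Nfe2l1 and Nfe2l2, of which 28 were tested in each comparison and none passed. In the bulk data 4 were higher and 1 lower at an unadjusted limma p under 0.05, against 19.5% and 4.62% of all genes, with a relative median of 0.10. The smallest p there belonged to Zfand2a, an arsenite-inducible partner of the 19S particle, with means of 4.12 TPM with PBS and 23 TPM with dopamine, a log2 fold change of 2.25 ± 0.45 and an adjusted limma p of 0.0832. Zfand5, which stimulates the proteasome, was at 1.39 ± 0.46. In the hashtags, the dopamine values were 0.35 ± 0.12 for Zfand5 and -0.21 ± 0.07 for Pomp, the assembly factor of the core, with adjusted edgeR p of 0.425 and 0.441. With IL-33 they were 0.56 ± 0.15 for Nfe2l2, which encodes NRF2, and -0.46 ± 0.14 for Zfand5, with adjusted edgeR p of 0.108 and 0.139.

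Genes that process and carry MHC class I peptides, a list of 14, were all tested and none passed in any comparison. In the bulk data 1 of 14 was below 0 on the log2 scale, against 28.6% of all genes, and 5 were higher at an unadjusted limma p under 0.05, against 19.5% of all genes, with a relative median of 0.22. Irf1, a transcription factor of interferon response, had means of 66.8 and 167 TPM, a log2 fold change of 1.38 ± 0.32 and an adjusted limma p of 0.0832. Nlrc5, the activator of MHC class I genes, was at 1.33 ± 0.39, and the class I gene H2-K1 at 0.30 ± 0.10, less than the shift of all genes (0.49). In the same libraries the immunoproteasome subunits Psmb8, Psmb9 and Psmb10 had log2 fold changes of -0.55, -0.60 and -0.30. In the hashtags B2m, the light chain of class I, was at -0.15 ± 0.05 with dopamine and at 0.18 ± 0.05 with IL-33, with adjusted edgeR p of 0.439 and 0.148. Tap1 was at 0.36 ± 0.17 with IL-33 (adjusted edgeR p of 0.355) and Tapbp, which loads the peptides, at -0.23 ± 0.10.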

How the data were processed

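Smart-Seq2 libraries and a hashtagged droplet pool of sorted lung ILC2s were used as deposited. Per the submitters' processing notes the tools were cutadapt 2.10, STAR 2.7.5c, RSEM 1.3.3, Cell Ranger 6.1.1 and Seurat 4.0.2 on mm10, with no settings given. The bulk values are TPM scaled by the authors. The single-cell values are UMI counts, deposited with the authors' hashtag, treatment, cluster and percent of mitochondrial UMIs for each cell; the percent values, computed by the authors, entered no result here. The authors' handling of doublets is not stated in the labels, and doublets were not called again.

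Bulk genes reaching 1 TPM in 3 or more of the 6 libraries were tested with limma 3.58.1 (trend) on log2(TPM + 1), which understates the change of low genes. UMI counts were summed per hashtag, and per hashtag and cluster, and tested with edgeR 4.0.16 (TMM, filterByExpr, quasi-likelihood) in R 4.3.3, with DESeq2 1.42.0 as an alternative. All 48 members passed the filters in the 3 main comparisons. Adjusted p is Benjamini-Hochberg over all genes tested, at a threshold of 0.05. The fits were tested on simulated data with planted changes larger than those of the members in the 3 main comparisons. The detection of smaller changes was not tested. The members and lists were chosen with earlier results of these data known. Named by rule were Psmb5 to Psmb10, Psme1, Psme2, up to 4 members with the smallest p per comparison, the lowest and highest member of each role, and up to 3 genes of each added list; some genes of these lists are not reported here.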

Additional observations from a re-analysis of the deposited data

Results flagged for a closer look

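In 4 members the IL-33_DA hashtags lay wholly below the IL-33 hashtags in one cluster and wholly above them in another. The difference between clusters was not tested. How often this happens over all genes was not counted, so the 4 members have no background to be read against. Over all pairs of a member and a cluster, 30 of 274 (10.9%) had groups without overlap, against 11.9% of all genes tested in the clusters. Psma7 was lower in cluster 3 and higher in cluster 5, and its log2 fold changes there differed by 0.25. Psmb2 was lower in cluster 1 and higher in cluster 4, a difference of 0.29. Psmc4 was lower in cluster 3 (45.8 to 59.6 against 63.9 to 74.2 CPM) and higher in clusters 0 and 4, with differences of 0.57 and 0.71. Psmf1 was lower in cluster 5 and higher in cluster 4, a difference of 0.86. None of these log2 fold changes passed in edgeR.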

How the results depend on the processing

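Of 104 recomputed values for the comparisons, 90 kept their direction and their call or moved little, 9 moved and 5 turned in sign. In the bulk data the members' median relative log2 fold change ranged from -0.86 to -0.51 over the libraries left out in turn and was -0.31 after the length trend. The count of members lower without overlap was 13 to 20 over the libraries left out, where 8.02% to 10.8% of all genes were so placed. It was 28 with median-of-ratios scaling, against 15.3%. Without PBS library 1, 2 members passed, in a fit where 14.3% of all genes did, and without any other library none passed. The 7 members lower at an unadjusted limma p under 0.05 were 3 to 9 over the libraries left out. The 3 were without dopamine library 2, where 3.34% of all genes were lower, and the 9 without dopamine library 1, where 4.86% were. With median-of-ratios scaling there were 26, against 12.9% of all genes, and with quantile normalization 16, against 10.9%. For IL-33 against PBS, 1 member passed with no filter and 1 without hashtag 4. The share of all genes passing under those settings was not counted. The median of 0.10 was 0.045 in cells between the 10th and 90th percentile of UMIs and 0.047 with equal weight of clusters. With a hashtag left out it was 0.037 to 0.11. The difference in immunoproteasome share between dopamine and its control, -0.56 percentage points in the bulk data, was 1.41 with Psmb8 and Psmb5 alone and -3.40 to 1.40 over the libraries left out; in the hashtags it was -0.96, 0.42 with Psmb8 and Psmb5 alone and -2.11 to -0.16 with a hashtag left out (-0.16 without hashtag 5, -2.11 without hashtag 8). For IL-33 against PBS the share difference of 2.20 was 1.07 to 3.32 with a hashtag left out. The cause of these shifts was not tested, except that fewer samples or genes enter some fits.

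Single genes kept their direction in 820 of 845 recomputed values, and the 25 that turned all had an adjusted p of 0.485 or more. Relative to the length trend, Psme2b turned to 0.41 and Psmg4 to 0.28 in the bulk data. In cells between the 10th and 90th percentile, Psmb4 turned to 0.0100 for dopamine and Psmb5 to -0.15 for IL-33. With equal weight of clusters, Psma1 turned to 0.021 for dopamine, and Psmb5 to -0.070 and Psme2b to -0.048 for IL-33. Psmb3 turned for IL-33 to 0.031 with library totals and 0.021 with no filter. With a library or hashtag left out, values crossed 0 for Psme2b in the bulk data (-0.73 to 0.15). For dopamine in the hashtags they did so for Psma1 (-0.066 to 0.016), Psmb4 (-0.074 to 0.012), Psme1 (-0.014 to 0.082), Psme2 (-0.017 to 0.099) and Psme2b (-0.062 to 0.43). For IL-33 they did so for Psmb10 (-0.0074 to 0.24), Psmb3 (-0.040 to 0.041), Psmb5 (-0.079 to 0.12), Psmd4 (-0.15 to 0.0093), Psme2b (-0.36 to 0.75) and Psmg3 (-0.21 to 0.57). Psmb7 passed for IL-33 with no filter and without hashtag 4, and Psmd1 in the bulk data without PBS library 1.

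The replicate numbers of the bulk libraries are not said to mark a shared mouse or day. Equally numbered libraries correlated at 0.0186, -0.0710 and -0.00177 after removal of group means. With so few libraries these values cannot tell whether the numbers pair them. With the replicate number as a block 0 members passed and the median was -0.71. Where an arm was left with 1 hashtag, that hashtag was assumed to vary like the other group. Depth limits the least abundant members, Psmc3ip with 4 to 27 UMIs and Psme2b with 9 to 51 UMIs per hashtag.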
